A study of Mus musculus with 40 samples.

Results

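The genes described here are the substrate adaptors of cullin ubiquitin ligases that carry the symbols Fbxo, Fbxl, Fbxw, Klhl, Kbtbd or Asb with a number, as measured by RNA sequencing in the gastrocnemius, a calf muscle, of tumor-bearing female mice. They were taken by gene symbol alone from a table of 12573 genes. Of 106 symbols that match, 5 (Fbxo21, Fbxo30, Fbxo31, Fbxo32 and Fbxo40) were left out by the rule, which leaves 101 genes: 20 Fbxo, 17 Fbxl, 8 Fbxw, 32 Klhl, 8 Kbtbd and 16 Asb. Among the Fbxl rows, Fbxl12os is annotated as a long non-coding RNA on the strand opposite Fbxl12 and is no adaptor. The mouse annotation (GENCODE, GRCm39) holds 137 protein-coding genes of these families besides the 5 left out, and 100 of them were in the table.

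All 40 animals were female C57BL6/J mice, 8 in each of 5 groups. Tumor mice received Lewis lung carcinoma cells, a mouse lung cancer line, under the skin at 8 weeks of age. The 1wk group was taken 1 week later at 9 weeks of age, and the 2wk group 2 weeks later at 10 weeks. The low-tumor (LT) group carried tumors of at most 1.2 g and the high-tumor (HT) group tumors of at least 2 g, both at 11 to 12 weeks of age after 3 to 4 weeks of growth, and mice of these ages were sorted into LT and HT by tumor mass. PBS controls received saline and were 12 weeks old. Age therefore differs between PBS and the 1wk and 2wk groups and cannot be told apart from the tumor there. The age of each LT and HT mouse is not given, so age and time with the tumor may also differ between HT, LT and PBS. The same PBS mice serve every comparison with PBS, and the same HT mice serve both HT comparisons.

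Cullin-RING ligases are modular. A cullin scaffold holds a RING protein and the ubiquitin-conjugating enzyme at its end and an exchangeable adaptor at the opposite end, and the adaptor picks the protein that will be ubiquitinated. F-box proteins (Fbxo, Fbxl with leucine-rich repeats, Fbxw with WD40 repeats) dock on Cul1 through Skp1, BTB-Kelch proteins (Klhl, Kbtbd) dock directly on Cul3, and Asb proteins, with ankyrin repeats and a SOCS box, dock on Cul5 through elongins B and C. In striated muscle several Kelch and Asb proteins act on sarcomere proteins, and human mutations in KLHL40, KLHL41 and KBTBD13 cause nemaline myopathy.

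Before the values, 6 promoter windows show the DNA in front of adaptor genes named below. Asb10, Asb11, Klhl7 and Klhl29 are shown because their HT difference from PBS was called under every setting run. Asb18 and Kbtbd13 are muscle genes picked both for being lower in HT and for holding a MEF2-type site. Their calls were lost once 3 HT mice named below were dropped, with folds of −0.29 and −0.13. Asb12, Asb16, Kbtbd12, Klhl33 and Klhl41, muscle genes that also hold such a site, were not called in HT against PBS. Whether the site goes with a fall in HT was not tested. Each window is the 250 bases before the RefSeq start on the gene's own strand (GRCm38.p6), in lower case. Capitals mark where the letters of a searched motif stand on either strand.
Asb10, chr5:24540979-24541228, minus strand: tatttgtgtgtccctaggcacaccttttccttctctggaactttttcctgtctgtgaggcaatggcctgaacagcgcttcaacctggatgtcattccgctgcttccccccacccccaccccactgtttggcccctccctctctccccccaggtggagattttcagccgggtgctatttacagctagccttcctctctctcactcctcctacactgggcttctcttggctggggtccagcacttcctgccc
Asb11, chrX:164436744-164436993, plus strand: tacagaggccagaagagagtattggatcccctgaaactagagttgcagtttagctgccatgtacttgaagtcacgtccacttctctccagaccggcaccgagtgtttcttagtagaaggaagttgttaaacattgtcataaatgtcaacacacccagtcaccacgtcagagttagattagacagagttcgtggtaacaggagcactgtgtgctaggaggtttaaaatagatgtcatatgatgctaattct
Klhl7, chr5:24100340-24100589, plus strand: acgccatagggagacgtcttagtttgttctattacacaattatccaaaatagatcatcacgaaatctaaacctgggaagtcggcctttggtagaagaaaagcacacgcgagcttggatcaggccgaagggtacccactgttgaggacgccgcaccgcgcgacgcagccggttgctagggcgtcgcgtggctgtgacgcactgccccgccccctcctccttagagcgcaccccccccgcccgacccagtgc
Klhl29, chr12:5375683-5375932, minus strand: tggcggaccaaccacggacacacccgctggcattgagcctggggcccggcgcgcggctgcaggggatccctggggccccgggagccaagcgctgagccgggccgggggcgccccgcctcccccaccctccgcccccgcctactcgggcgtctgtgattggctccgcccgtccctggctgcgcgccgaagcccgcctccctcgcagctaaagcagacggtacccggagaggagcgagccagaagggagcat
Asb18, chr1:90014667-90014916, minus strand: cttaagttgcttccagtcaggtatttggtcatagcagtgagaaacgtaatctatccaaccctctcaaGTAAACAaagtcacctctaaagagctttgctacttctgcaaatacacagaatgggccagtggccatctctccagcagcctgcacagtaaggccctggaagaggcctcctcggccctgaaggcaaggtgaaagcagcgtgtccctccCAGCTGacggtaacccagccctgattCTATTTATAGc
Kbtbd13, chr9:65391653-65391902, minus strand: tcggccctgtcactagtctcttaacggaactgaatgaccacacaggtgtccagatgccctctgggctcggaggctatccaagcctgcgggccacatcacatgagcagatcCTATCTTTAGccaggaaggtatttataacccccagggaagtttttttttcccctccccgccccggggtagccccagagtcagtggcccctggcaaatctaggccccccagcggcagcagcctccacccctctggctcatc

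In all, 83 of the 101 genes had an entry, with 116 windows among them. The letters searched were TTCNNNGAA (STAT type), TGTTTAC (FoxO type), CTA and TAG with 4 bases between them (MEF2 type, MEF2 being a factor of muscle genes), CAGCTG (myogenic E-box) and TTGCNNCAA (C/EBP type). The MEF2-type letters stood in 11 of the 116 windows, 9.48% against 3.2% of all 32851 windows of the same length. By gene, 7 of 19 muscle-enriched adaptors with an entry had them (Asb12, Asb16, Asb18, Kbtbd12, Kbtbd13, Klhl33 and Klhl41) and 3 of the other 64 (Asb1, Fbxl15 and Fbxo34). In Asb18 they began 11 bases before the start and in Kbtbd13 140 bases before it. The E-box letters were in 17.2% of the members' windows and 13% of all, the STAT-type letters in 5.17% and 7.02%, the FoxO-type letters in 1.72% and 3.17%, and the C/EBP-type letters in 0.862% and 1.74%. The windows of Asb10, Asb11, Klhl7 and Klhl29 held none of the 5. Other adaptors called in every setting, not printed here, did hold some. Fbxw5 held the E-box letters, Klhl5 the STAT-type and E-box letters among its windows, and Asb1 the MEF2-type letters, while Klhl17 held none. A match is only a match of letters, and windows of the same gene can overlap.

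Values are normalised read counts as deposited, in which 1 sequenced read was worth 0.422 to 0.733 units in the PBS, 1wk and 2wk libraries and 1.58 to 3.37 in the LT and HT libraries. By that measure the first 3 groups held 15.67 to 28.64 M reads (M, 10 to the 6th power) a library and the LT and HT libraries 3.49 to 7.75 M, so depth cannot be told apart from group when LT or HT is set against PBS, while HT and LT are alike in depth. In the LT and HT libraries 4 to 21 of the 101 genes lay under 10 reads, against 0 to 3 in the other libraries. Fold changes are on the log2(value + 1) scale, with a standard error from limma over all 40 mice, and a gene is called at an adjusted p under 0.05 over all 12573 genes. All 15 skeletal muscle markers were measured, and in HT 5 were lower than in PBS and 5 lower than in LT, with 0 higher in either. The HT mice C48, C54 and C55 stood apart from the other 5 in an earlier look at these data, and results are given with and without them. They were picked with these same data in view, and leaving them out leaves 5 HT mice. A smaller fold or a lost call without them can follow from that alone and is no independent check. Neutrophil markers (6 of 14 measured) summed to 30.8 to 65.7 in PBS and 709 to 2709 in HT, and 6 of the 6 were higher. Erythroid markers were higher in HT for 8 of 11 and lower for 2, endothelial markers higher for 8 of 12, and fast fibre markers lower for 7 of 14. Of the slow fibre markers 0 of 12 were called, and of the Schwann cell and nerve markers 0 of 7. Macrophage markers were higher for 4 of 12 and adipocyte markers for 3 of 8. Fibroblast markers were lower for 2 of 10 and satellite cell markers for 1 of 6. Of 10 T and B cell markers 0 were measured. The part of these cell types in the results on the adaptors was not tested.

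Adaptor transcripts passed the adjusted threshold against PBS in the HT group, and none did in the 1wk, 2wk or LT groups. Of all genes, 0.525%, 0.0795% and 0.636% were called in those 3 groups, so a count of 0 there says little about the adaptors. With a weight for each library, 4 adaptors were called in 1wk and 2 in LT. In HT, 35 of the 101 genes were called (34.7%), 17 higher and 18 lower, where 32.9% of all genes were called, 16.5% in each direction. The share among the adaptors was close to that of the whole table, and their median log2 fold change was −0.05 beside 0.00 for all genes. In bulk muscle, fewer cells of a type and less RNA per cell cannot be told apart. Between HT and LT, 16 genes were called (15.8%), 7 higher and 9 lower, where 20.4% of all genes were called, 9.94% higher and 10.5% lower. A test for any difference among the 5 groups called 28 genes (27.7%, all genes 29.5%). Without C48, C54 and C55 the HT counts were 12 against PBS (16.1% of all genes), 11 of them also called with all mice, and 2 against LT (3.18% of all genes). With a weight for each library they were 21 and 1, and in a fit of 2 groups at a time 17 and 2. The share of all genes called under these 2 settings was not counted, so these drops cannot be set against the whole table. Against LT, the call with library weights was Klhl5 and those in the 2-group fit were Klhl5 and Asb10, so the other HT against LT calls below were lost in both.

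**Figure D1:**
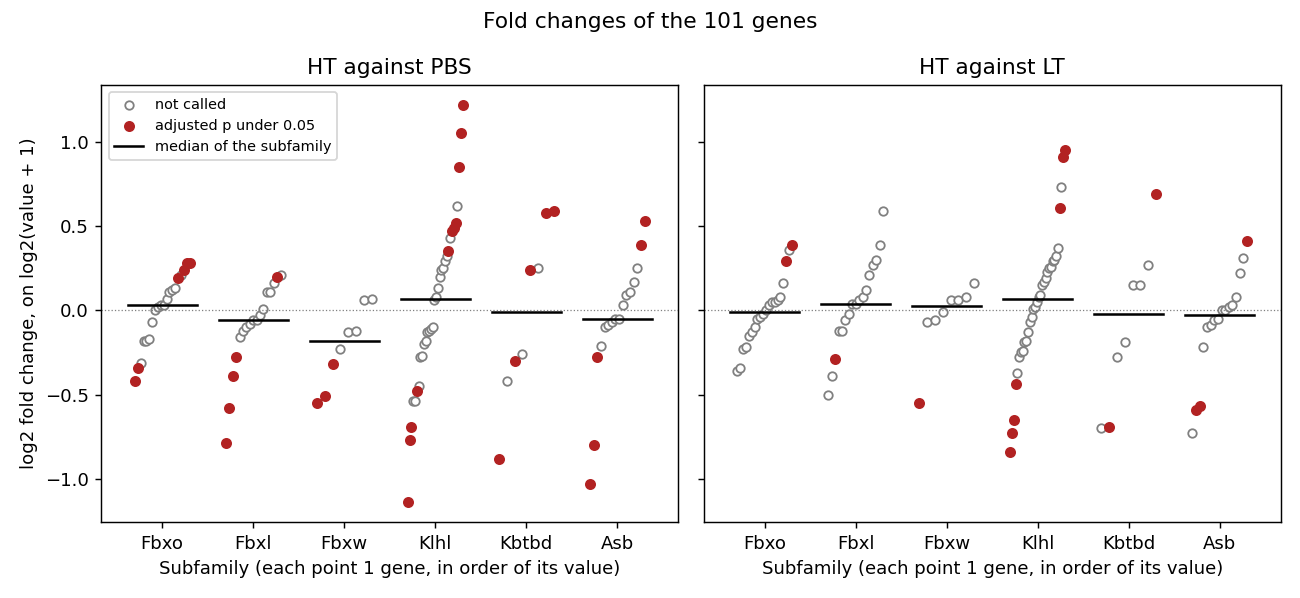
Log2 fold change of each of the 101 genes by subfamily, HT against PBS (left) and HT against LT (right), 8 mice a group. Each point is 1 gene, filled where the adjusted p is under 0.05, and the line is the subfamily's median. The Klhl genes span the widest range in HT against PBS, from −1.14 to 1.22, and the F-box genes (Fbxo, Fbxl, Fbxw) stay between −0.79 and 0.28.

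By subfamily, the share called in HT against PBS ran from 29.4% in Fbxl to 62.5% in Kbtbd, a family of 8, where 32.9% of all genes were called (16.5% each way), and the other subfamilies lay at 37.5% or less. The calls were 6 of 20 Fbxo (4 higher, 2 lower), 5 of 17 Fbxl (1 higher, 4 lower), 3 of 8 Fbxw (0 higher, 3 lower), 11 of 32 Klhl (7 higher, 4 lower), 5 of 8 Kbtbd (3 higher, 2 lower) and 5 of 16 Asb (2 higher, 3 lower). The medians lay between −0.18 in Fbxw and 0.07 in Klhl. The size of the differences varied more: the median absolute log2 fold change was 0.33 in Klhl and 0.36 in Kbtbd, 0.12 in Fbxl, 0.14 in Asb, 0.17 in Fbxo and 0.18 in Fbxw, and 0.24 over all genes. None of these differences between subfamilies was tested.

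Among the Kelch adaptors of Cul3, Klhl38, Klhl5 and Klhl7 showed the largest rises in HT. Klhl38, a Kelch gene of striated muscle, ran from 283 to 583 in PBS with a median of 450.0, and from 379 to 2457 in HT with a median of 1109.9. The 1wk, 2wk and LT medians were 353, 321 and 499.8. Its highest HT value was that of C54, and 2 HT mice lay within the PBS range. The log2 fold change was 1.22 ± 0.31 (SE, n = 8 a group, limma adjusted p = 0.00296), but 0.75 without C48, C54 and C55 with an adjusted p of 0.104, no longer a call. Against LT it was 0.95 ± 0.31 (adjusted p = 0.0268) and 0.49 (adjusted p = 0.428) without them.

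Klhl5 was the only adaptor whose HT mice lay wholly above the PBS mice, where 1.8% of all genes did. It ran from 64.5 to 106 in PBS (median 83.7) and from 117 to 298 in HT (median 141), while the 1wk, 2wk and LT medians were 97.1, 90.8 and 89.4. The log2 fold change was 1.05 ± 0.18 (adjusted p = 3.76e-05) against PBS and 0.91 ± 0.18 (adjusted p = 0.000627) against LT. C48, C54 and C55 held 261, 298 and 271 and the other 5 HT mice 117 to 144. Without those 3 the fold against PBS was 0.65 with an adjusted p of 0.00436, and that against LT was 0.51 with an adjusted p of 0.0638, no longer a call.

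Klhl7, a Cul3 adaptor mutated in human retinitis pigmentosa, ran from 525 to 739 in PBS (median 672) and from 643 to 2809 in HT (median 991). C55 and C54 were highest at 2809 and 2115, C48 was lowest at 643, and the other 5 HT mice lay between 889 and 1048, above every PBS mouse. The medians were 640.2 in 1wk, 762 in 2wk and 742 in LT. The log2 fold change was 0.85 ± 0.17 against PBS (adjusted p = 0.000284) and 0.61 ± 0.17 against LT (adjusted p = 0.0109), and without C48, C54 and C55 it was 0.59 (adjusted p = 0.000101) and 0.35 (adjusted p = 0.0422). Klhl7 was the 1 named adaptor called in both HT comparisons with and without those mice, but its call against LT was lost with library weights and in the 2-group fit.

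Klhl29 had the steepest fall of the 101 genes in HT against PBS. It ran from 58.6 to 94.4 in PBS (median 82.5) and from 10.2 to 69.9 in HT (median 43.4), with C54 and C55 lowest at 10.2 and 13.9, a handful of reads at this depth. The 1wk, 2wk and LT medians were 65.6, 72.8 and 62.9, all under that of PBS, but none of these groups was called. Its log2 fold change was −1.14 ± 0.24 against PBS (adjusted p = 0.000444) and −0.65 ± 0.24 against LT (adjusted p = 0.045), and −0.73 (adjusted p = 0.00105) against PBS without the 3 HT mice.

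Klhl23 ran from 209 to 304 in PBS (median 261) and from 66.3 to 254 in HT (median 165), where its fold was −0.77 ± 0.19 (adjusted p = 0.00189). Its 1wk and 2wk medians of 301 and 311 stood above that of PBS. Without the 3 HT mice the fold was −0.38 (adjusted p = 0.102), not a call. Klhl17, known as actinfilin in rat brain for its binding of actin, ran from 159 to 214 in PBS (median 171) and from 47.9 to 155 in HT (median 113), so the ranges did not overlap (1.67% of all genes lay wholly below PBS). Its fold was −0.69 ± 0.15 (adjusted p = 0.000567) and −0.52 (adjusted p = 0.00426) without the 3 mice. Klhl17 shares exon bases with Perm1 on the opposite strand, a muscle gene that fell by 1.27 on the log2 scale in HT (adjusted p = 0.00144). Whether reads were counted by strand is not stated in the labels or methods, so reads of the 2 genes may not be told apart. Plekhn1 shares exon bases with Klhl17 on the same strand, and its fold in HT was −0.55 (adjusted p = 0.217).

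**Figure D2:**
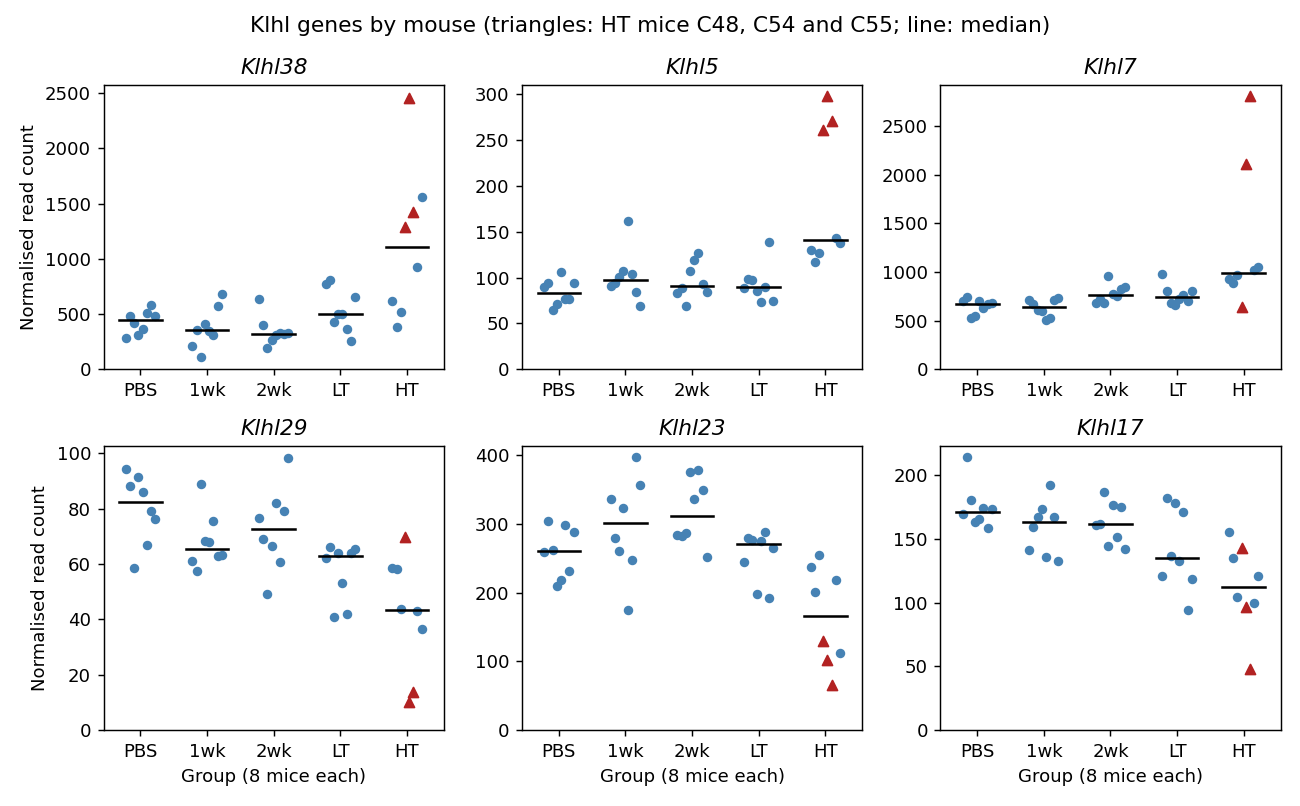
Normalised read count of 6 Klhl genes in each of 40 mice by group, with the group median as a line. Triangles are the HT mice C48, C54 and C55. Klhl5 in HT lies wholly above PBS and Klhl17 wholly below it, and the triangles hold the 3 highest Klhl5 values and the 2 lowest Klhl29 values in HT.

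Of the other 26 Klhl genes, 5 were called in HT against PBS, named here after their values were seen. Klhl24, which targets keratin 14 in human skin, rose from a median of 1562 in PBS to 2099 in HT (log2 fold change 0.49 ± 0.12, adjusted p = 0.00198), and its call held without the 3 HT mice (0.36, adjusted p = 0.0441). Klhl9 (0.35), Klhl2 (0.52) and Klhl21 (0.47) also rose and Klhl25 fell by 0.48, and each of these 4 lost its call without the 3 mice, with folds of 0.20, 0.41, 0.18 and −0.14. Klhl9 and Klhl21 act on Aurora B in dividing human cells, and Klhl2 on WNK kinases.

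Of the muscle-enriched Klhl genes, Klhl38 (above) was called in HT against PBS, and Klhl30, Klhl31, Klhl33, Klhl34, Klhl40 and Klhl41 were not. Klhl41, which binds nebulin, had a PBS median of 6444 and medians of 6122, 6993, 7918 and 7683 in the 1wk, 2wk, LT and HT groups, with a fold of 0.13 ± 0.14 in HT (adjusted p = 0.511). Klhl40, which stabilises nebulin and leiomodin 3, had medians of 2234 in PBS and 1845 in HT and a fold of −0.45 ± 0.20 (adjusted p = 0.0847). In PBS 2 mice stood at 5317 and 5836, and C48 was the highest HT mouse at 3365. Hhatl, which overlaps Klhl40 on the opposite strand, fell by 0.81 in HT (adjusted p = 7.08e-05). Klhl31, which targets filamin C in mouse muscle, had medians of 4548 in PBS, 5847 in LT and 4791 in HT. It was lower in HT than in LT (−0.44 ± 0.15, adjusted p = 0.0371), with C48, C54 and C55 at 2127 to 3336 and the other HT mice at 4288 to 5574, and without those 3 the fold was −0.10 (adjusted p = 0.732).

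Klhl33 differed between HT and LT by −0.84 ± 0.22 (adjusted p = 0.00607). It ran from 2501 to 5416 in LT (median 3787) and from 770.5 to 3133 in HT (median 2305), C48 lowest, and against PBS the fold was −0.54 ± 0.22 (adjusted p = 0.0509). Without the 3 HT mice the fold against LT was −0.47 (adjusted p = 0.178). Klhl30 and Klhl34 had folds of −0.13 ± 0.16 and −0.27 ± 0.30 in HT against PBS, neither called.

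Kbtbd genes, the other Kelch group of Cul3, split between rises and falls in HT. Kbtbd7, which with Cul3 acts on the Rac activator TIAM1 in human cells, rose from a median of 95.0 to 133 (0.58 ± 0.16, adjusted p = 0.00638), and Kbtbd2, which in mice limits the PI3-kinase subunit p85α, from 257 to 308 (0.24 ± 0.07, adjusted p = 0.00856). Kbtbd11 was scarce, with medians of 17.3 in PBS, 12.9 in LT and 24.3 in HT, a few reads in the shallower libraries (0.59 ± 0.22, adjusted p = 0.0389 against PBS and 0.69 ± 0.22, adjusted p = 0.027 against LT). Kbtbd13, the nemaline myopathy gene, ran from 190.3 to 388 in PBS (median 244) and from 22.1 to 304 in HT (median 199). C55 held 22.1 and C54 58.7, and the other HT mice lay between 156 and 304, and it fell by 0.88 on the log2 scale (SE 0.31, adjusted p = 0.0253), or by 0.13 without the 3 mice (adjusted p = 0.661). Kbtbd4 fell by 0.30 (SE 0.09, adjusted p = 0.0154), and Kbtbd4 shares exon bases with Ptpmt1 and Ndufs3 on the opposite strand, which fell by 0.67 and 0.33 in HT.

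Kbtbd3 was lower in HT than in LT, with medians of 94.2 and 112 (−0.69 ± 0.19, adjusted p = 0.00875). Kbtbd12, a muscle gene, had medians of 645 in PBS and 552 in HT (−0.26 ± 0.11, adjusted p = 0.07). None of the Kbtbd calls held without C48, C54 and C55. Kbtbd11 then had folds of 0.64 (adjusted p = 0.0865) against PBS and 0.74 (adjusted p = 0.11) against LT, no smaller than with them, while Kbtbd7 was at 0.28, Kbtbd2 at 0.15 and Kbtbd4 at −0.15 against PBS, and Kbtbd3 at −0.33 against LT. The call of Kbtbd11 against PBS was also lost without any 1 of C5, C9, C10, C38, C48, C55 or C60 (adjusted p up to 0.117), that of Kbtbd13 without C9, C54 or C55 (up to 0.0884) and that of Kbtbd4 without C55 (0.0573).

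Asb genes, the SOCS-box adaptors of Cul5, are in large part muscle genes. In HT against PBS 5 of 16 were called (31.2%, all genes 32.9%). Asb10 gave the clearest fall. It ran from 1656 to 2289 in PBS (median 1891) and from 641 to 1636 in HT (median 1127), so every HT mouse lay below every PBS mouse, and the 1wk, 2wk and LT medians were 1619, 1609.7 and 1579. The log2 fold change was −0.80 ± 0.14 against PBS (adjusted p = 4.84e-05) and −0.57 ± 0.14 against LT (adjusted p = 0.00375). C55 and C54 were lowest at 641 and 791. Without C48, C54 and C55 the fold against PBS was −0.57 (adjusted p = 0.00253) and that against LT was −0.34 (adjusted p = 0.131).

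Asb11, known in zebrafish for a part in muscle regeneration, rose. It ran from 3213 to 4262 in PBS (median 3681) and from 4093 to 8561 in HT (median 4757), with C55 and C54 highest at 8561 and 7299, and the lowest HT mice lay within the PBS range. Medians in 1wk, 2wk and LT were 3562, 3701 and 3805. Its fold was 0.53 ± 0.11 against PBS (adjusted p = 0.000398) and 0.41 ± 0.11 against LT (adjusted p = 0.00749), and 0.31 (adjusted p = 0.0144) and 0.19 (adjusted p = 0.221) without the 3 HT mice.

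Asb5 had medians of 2798 in PBS and 3464 in HT and C55 stood at 7067 (0.39 ± 0.15, adjusted p = 0.0365), a call lost without the 3 HT mice (0.17, adjusted p = 0.325) and without any 1 of C2, C5, C6, C9, C10, C11, C54 or C55 (up to 0.132). Spcs3, which overlaps Asb5 on the opposite strand, rose by 0.63 in HT (adjusted p = 0.000112). Asb18 ran from 70.6 to 131 in PBS (median 84.7) and from 5.52 to 94.8 in HT (median 55.9), where C55 and C54 held 5.52 and 20.1, the former a few reads. It fell by 1.03 on the log2 scale (SE 0.35, adjusted p = 0.0227), or by 0.29 without the 3 HT mice (adjusted p = 0.503), and the call was also lost without C54 or without C55 alone (up to 0.0848). Asb1 fell by 0.28 (SE 0.09, adjusted p = 0.0144), from a median of 245 to 199, and by 0.30 without the 3 mice (adjusted p = 0.0365).

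Asb15 was highest in LT, with medians of 1037 in PBS, 1483 in LT and 1038 in HT. It was lower in HT than in LT (−0.59 ± 0.19, adjusted p = 0.0264), while its LT value against PBS (0.49 ± 0.19) had an adjusted p of 0.277. The call was lost without the 3 HT mice (−0.45, adjusted p = 0.234) and without any 1 of C39, C42, C57 or C55 (up to 0.0836). Asb2, which targets filamins and desmin and holds down muscle mass when raised in mice, had a PBS median of 7689 and medians of 7310.2, 7256, 8772 and 8229 in the 1wk, 2wk, LT and HT groups, with C48 the highest mouse at 13405 (0.25 ± 0.12, adjusted p = 0.107). Asb4, Asb8, Asb12, Asb14 and Asb16 had HT folds between −0.21 and 0.09, none called.

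**Figure D3:**
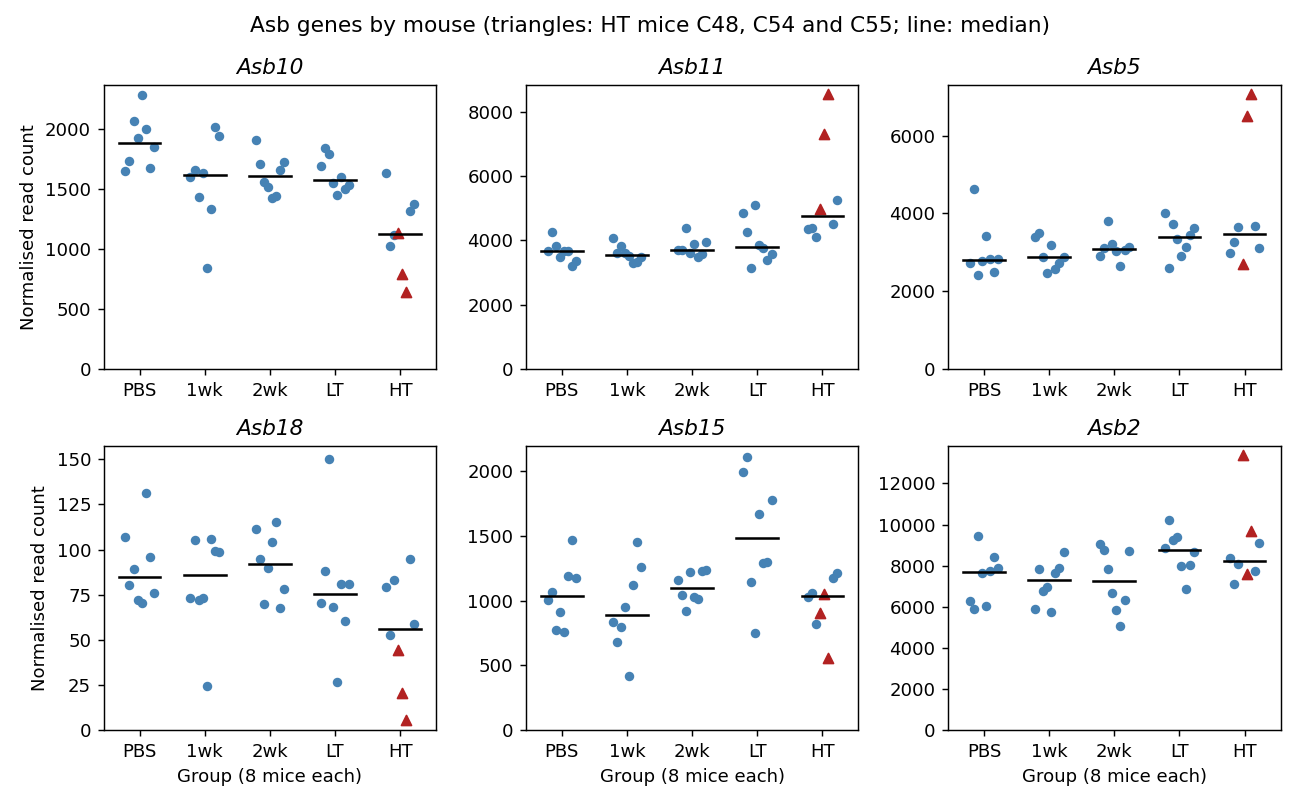
Normalised read count of 6 Asb genes in each of 40 mice by group, with the group median as a line and triangles for the HT mice C48, C54 and C55. Asb10 in HT lies wholly below PBS, the highest Asb11 and Asb5 values in HT are those of C55, and Asb2 overlaps in all groups.

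The list of 21 muscle-enriched adaptors, drawn up from knowledge of where these genes are expressed, joins the Klhl, Kbtbd and Asb genes above with Fbxl22, a sarcomere-linked F-box gene of heart. In HT against PBS 6 were called (3 higher, 3 lower; Klhl38, Asb11 and Asb5, and Asb18, Kbtbd13 and Asb10), 28.6% where 32.9% of all genes were. In HT against LT 6 were called (2 higher, 4 lower), 28.6% beside 20.4% of all genes. Fbxl22 ran from 12.1 to 243 in HT, the highest being C48 and the lowest C55, against 38.2 to 87.1 in PBS (0.01 ± 0.34, adjusted p = 0.981). C55 had the lowest median over the list of all 40 mice, −0.70 on the log2 scale relative to PBS, where the other HT mice lay between −0.25 and 0.10. The 1wk mouse C17 came next at −0.63.

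F-box adaptors of Cul1 had smaller folds, none past −0.79 or 0.28 in HT against PBS. Fbxo11, which targets BCL6 in human lymphoma cells, rose from a median of 553 in PBS to 647 in HT (0.24 ± 0.07, adjusted p = 0.00963), and its fold without C48, C54 and C55 was 0.29 (adjusted p = 0.0108). Its LT median of 629.7 was close to that of HT, and the LT fold of 0.21 ± 0.07 had an adjusted p of 0.187. Fbxw5 fell from 1094 to 908 (−0.32 ± 0.07, adjusted p = 0.000853) and to about the same extent without the 3 mice (−0.30, adjusted p = 0.0089). Its LT median was 922, with a fold of −0.26 ± 0.07 and an adjusted p of 0.0761. Fbxw5 shares exon bases with C8g on the opposite strand, which fell by 0.88 in HT (adjusted p = 0.0207).

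Fbxw7, which marks Myc, cyclin E and Notch for destruction, ran from 328 to 492 in PBS (median 441) and from 157 to 494 in HT (median 342). Its fold was −0.51 ± 0.17 against PBS (adjusted p = 0.0179) and −0.55 ± 0.17 against LT (adjusted p = 0.0181). Both calls were lost without C54, without C55 and without the 3 HT mice, where the folds were −0.14 (adjusted p = 0.527) and −0.18 (adjusted p = 0.503). Fbxw17 fell by 0.55 (SE 0.20, adjusted p = 0.0351), with medians of 64.3 in PBS and 46.1 in HT and no call without the 3 mice (−0.50, adjusted p = 0.132).

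Of the Fbxo genes, Fbxo6, which binds glycoproteins in their disposal from the endoplasmic reticulum, had medians of 412 in PBS, 382 in LT and 446 in HT, with C55 highest at 795. Its folds of 0.28 ± 0.11 against PBS (adjusted p = 0.045) and 0.39 ± 0.11 against LT (adjusted p = 0.0123) came to −0.02 (adjusted p = 0.91) and 0.09 (adjusted p = 0.562) without the 3 HT mice, so its direction against PBS turned. Fbxo38, which targets PD-1 in T cells, rose by 0.28 ± 0.11 against PBS (adjusted p = 0.0387) and 0.29 ± 0.11 against LT (adjusted p = 0.0436), with 0.09 (adjusted p = 0.477) and 0.10 (adjusted p = 0.514) without them. Fbxo28 rose by 0.19 ± 0.07 (adjusted p = 0.0327, named after its value was seen). Fbxo25 and Fbxo9 fell by 0.42 (SE 0.13, adjusted p = 0.0156) and 0.34 (SE 0.11, adjusted p = 0.0117). Without the 3 mice these calls were lost, with folds of 0.13 for Fbxo28 (adjusted p = 0.236), −0.14 for Fbxo25 (adjusted p = 0.389) and −0.30 for Fbxo9 (adjusted p = 0.0699).

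Of the Fbxl genes, Fbxl15, which targets the ligase Smurf1, had medians of 35.9 in PBS and 20.7 in HT (−0.58 ± 0.21, adjusted p = 0.0329). C55 stood apart at 62.8, above every PBS mouse, while the other 7 HT mice lay at 11.4 to 32.9. Without the 3 HT mice the fall was larger (−0.74, adjusted p = 0.0122), but with all mice the call was lost with quantile normalization and in the 2-group fit. Fbxl16, which in human cells does not assemble with Cul1, fell by 0.79 (SE 0.23, adjusted p = 0.0086), Fbxl18 by 0.39 (SE 0.15, adjusted p = 0.037) and Fbxl17, a quality control adaptor of BTB dimers, by 0.28 (SE 0.10, adjusted p = 0.0211). The calls of Fbxl16, Fbxl17 and Fbxl18 were lost without the 3 mice, with folds of −0.50 (adjusted p = 0.0909), −0.18 (adjusted p = 0.238) and −0.43 (adjusted p = 0.0647), that of Fbxl18 no smaller than with them. Fbxl17 was also lower in HT than in LT (−0.29 ± 0.10, adjusted p = 0.0276).

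Calls near the threshold depended on single mice. Against PBS, Fbxo6 lost its call without any 1 of 9 mice (adjusted p up to 0.161), Fbxo38 without any 1 of 6 (0.143), Fbxl15 of 6 (0.0931), Fbxl18 of 10 (0.0842), Fbxw17 of 7 (0.0896) and Fbxl17 of 3 (0.0569). Fbxo25 lost it without C54 or C55 (0.0593). Against LT, Klhl29 lost its call without any 1 of 9 mice (0.161), Fbxo38 of 8 (0.154), Klhl31 of 7 (0.131), Fbxl17 of 5 (0.0762), Klhl38 of 4 (0.0887) and Kbtbd11 of 3 (0.0716). Of 28 adaptors called against PBS and chosen by the naming rule, which leaves out the 6 named after their values were seen, 9 kept the call in every setting run and without any single mouse: Asb1, Asb10, Asb11, Fbxo11, Fbxw5, Klhl5, Klhl7, Klhl17 and Klhl29.

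**Figure D4:**
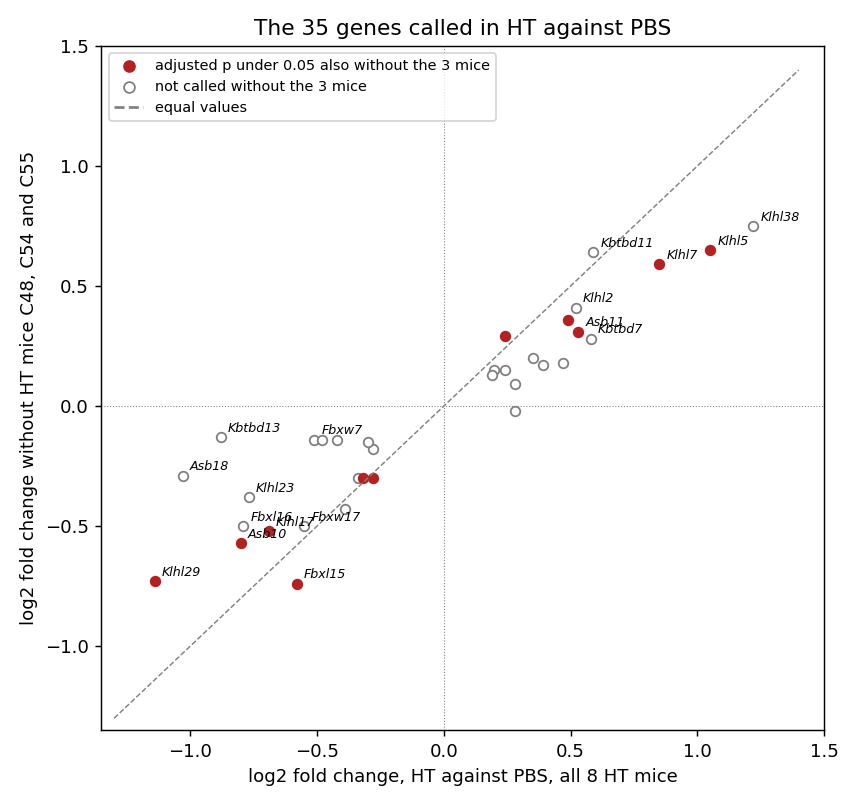
Log2 fold change of the 35 genes called in HT against PBS with all 8 HT mice (horizontal) and without C48, C54 and C55 (vertical), with the dashed line at equal values. Filled points are called in both fits, 11 genes, and Kbtbd13 and Asb18 shrink most, to −0.13 and −0.29.

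In the smaller-tumor groups no adaptor passed the adjusted threshold of limma. The count was 0 of 101 in 1wk, where 0.525% of all genes were called, 0 in 2wk (0.0795%), 0 in LT (0.636%) and 0 in 2wk against 1wk (0.0159%). At an unadjusted p under 0.05 there were 10 adaptors in 1wk (2 higher, 8 lower; 11.6% of all genes), 2 in 2wk (4.66%), 16 in LT (6 higher, 10 lower; 12.3%) and 5 between 2wk and 1wk (7.6%). In LT the lowest of these p values belonged to Fbxw5 and Fbxl18 (−0.47 ± 0.15, adjusted p = 0.141), and in 1wk to Fbxl4 (−0.34 ± 0.10, adjusted p = 0.106). Fbxl4, a mitochondrial F-box protein, and the others of this paragraph were named after their values were seen.

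The same groups were set against each other for the rest of the cullin machinery. Of 45 measured genes for cullins, RING proteins, linkers, neddylation and the COP9 signalosome, 17 were called in HT against PBS (11 higher, 6 lower; 37.8%, all genes 32.9%). Skp1, the linker of F-box adaptors to Cul1, ran from 2744 to 3094 in PBS and from 3619.7 to 4958 in HT, with no overlap (0.49 ± 0.07, adjusted p = 1.77e-06). In LT it ran from 2788 to 4053 and was called as well (0.31 ± 0.07, adjusted p = 0.0145), a call that held without each single mouse. Cul1 rose from a median of 1419.8 to 1710.1 (0.44 ± 0.12, adjusted p = 0.00443) and Cul4b from 181 to 261 (0.52 ± 0.12, adjusted p = 0.00176), while Cul3 and Cul5, the scaffolds of the Kelch and Asb adaptors, had folds of 0.23 ± 0.10 (adjusted p = 0.0616) and 0.02 ± 0.08 (adjusted p = 0.833).

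Elob, the elongin B linker of Asb proteins, fell from 1539.7 to 1220.5 (−0.29 ± 0.08, adjusted p = 0.00329). The COP9 signalosome, which removes NEDD8 from cullins, held members in both directions: Cops2 rose by 0.48 ± 0.11 (adjusted p = 0.000814) and Gps1 fell by 0.25 (SE 0.06, adjusted p = 0.00193). Gps1 was called in LT too (−0.24 ± 0.06, adjusted p = 0.0472), but that call was lost without any 1 of 26 of the 40 mice. Dcun1d2, which helps attach NEDD8, and the ubiquitin-conjugating enzyme Ube2r2 fell by 0.35 (SE 0.12, adjusted p = 0.0217) and 0.30 (SE 0.09, adjusted p = 0.00928). The calls of Cul1, Cul4b, Dcun1d2 and Ube2r2 were lost without C48, C54 and C55, with folds of 0.15, 0.32, −0.09 and −0.25.

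Of 67 other cullin adaptors outside the 6 families, 21 were called in HT against PBS (12 higher, 9 lower). That was 31.3%, close to the 32.9% of all genes (16.5% each way). Socs3, a SOCS-box inhibitor of JAK-STAT signalling, gave the largest rise, from 22.8 to 60.1 in PBS (median 32.4) to 65.1 to 464 in HT (median 143), with no overlap (2.06 ± 0.35, adjusted p = 4.98e-05). Dcaf10, a Cul4 receptor, rose by 0.74 ± 0.15 (adjusted p = 0.000483), Kctd20 by 0.69 ± 0.12 (adjusted p = 3.6e-05) and Kctd9 by 0.44 ± 0.11 (adjusted p = 0.0035). Rhobtb1, a Cul3 adaptor, fell by 0.84 (SE 0.23, adjusted p = 0.00462), Kdm2b, an F-box histone demethylase, by 0.48 (SE 0.17, adjusted p = 0.0281), Kctd15 by 0.45 (SE 0.15, adjusted p = 0.0149) and Klhdc10, a Cul2 receptor, by 0.44 (SE 0.11, adjusted p = 0.00195). The calls of Kctd9, Kdm2b, Kctd15 and Klhdc10 were lost without the 3 HT mice, with folds of 0.19, −0.05, −0.20 and −0.23. Cish, a relative of Socs3 named after its value was seen, was the 1 gene of this list called at 2wk, where 0.0795% of all genes were. Its medians were 70.4 in PBS and 559.9 in 2wk (2.30 ± 0.49, adjusted p = 0.0417), and the call was lost without any 1 of 18 of the 40 mice.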

How the data were processed

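RNA from whole gastrocnemius was sequenced after polyA selection with a stranded kit as single reads. Per the study's methods and the processing notes, the authors aligned reads with STAR 2.7.8a and quantified RefSeq genes in Partek. The deposited values are a signal per gene, read counts divided by DESeq2 median-ratio size factors after a filter on low totals, and are not whole numbers (99.6% of them), so no count model was used. The notes list both mm10 and mm39, and the gene positions match GRCm39 for 101 of 101 genes. The authors' own fold changes and p-values were not used.

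Values were fitted as log2(value + 1) in limma 3.58.1 (R 4.3.3) with a trend, 5 groups in one model, and p-values were adjusted by Benjamini-Hochberg over 12573 genes. The test was tested on simulated data, in which each gene had the same spread in all 5 groups. In the real data some genes spread more in HT, such as Klhl7 with an SD of 750 in HT and 77.2 in PBS. The simulation therefore cannot show how the HT calls behave under such a spread or at the lower depth of LT and HT. The reads behind a value were estimated from the steps between low values, of which 77.5% to 89.1% lay within 0.1 of a whole read. Groups came from the sample labels, and each sample is 1 mouse. Pooling of mice is not stated in the labels. Alternatives were 2 pseudocounts (0.5 and 5), a mean filter of 30, quantile and median scaling, library weights, 2-group fits, robust moderation without a trend, and leaving out mice.

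The members and lists were chosen with earlier results of these data known. Named are, per subfamily, the 3 called genes with the highest and the 3 with the lowest fold in HT against PBS and against LT, called genes of the other comparisons, all muscle-enriched adaptors, and the 4 highest and 4 lowest called genes of the core and other adaptor lists in HT against PBS. Genes named otherwise are marked as such in the text. The result of 1 gene that the rule names is not reported here, though the counts over all adaptors and by subfamily include it. No list was tested as a set. Promoter sequences are from RefSeq on GRCm38.p6. Exon overlaps are from GENCODE on GRCm39: 59 of the 101 genes share exon bases with a gene on the opposite strand, 8 with a gene on the same strand, and their values are uncertain to that extent.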

Additional observations from a re-analysis of the deposited data

Results flagged for a closer look

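In 23 of the 220 combinations of named adaptor and group (10.5%), the highest or lowest mouse stood far from the rest of its group by Dixon's test (critical value 0.526 for 8 mice). For normally distributed values chance gives about 1 in 20. The test was run on values that were not log-transformed, and genes of the same mouse are not independent. The 10.5% can therefore not be read as an excess over chance. The 1wk mouse C17 gave 7 of the 23. It was high in Klhl5 (162, next 107) and low in Kbtbd4 (175, next 224), Asb18 (24.3, next 71.9), Kbtbd3 (65.8, next 90.4), Kbtbd12 (319, next 526), Asb14 (1091, next 1706) and Asb16 (868, next 1195). The PBS mouse C4 was high in Fbxw17 (80.2, next 65.8), Klhl17 (214, next 180.3), Asb5 (4634, next 3433) and Kbtbd3 (150.5, next 105), and the PBS mouse C10 low in Klhl31 (3014, next 4237). Among HT mice, C48 was high in Klhl40 (3365, next 2149.7), Asb2 (13405, next 9691) and Fbxl22 (243, next 93.5), and C55 in Fbxl15 (62.8, next 32.9). Among LT mice, C39 was low in Fbxl18 (18.4, next 29.9) and high in Klhl7 (982, next 809), C56 high in Klhl5 (138, next 98.5) and C51 low in Asb14 (1794, next 1985). Among 2wk mice, C27 was high in Klhl38 (632, next 399), C28 high in Kbtbd7 (143, next 111) and C32 low in Kbtbd2 (241, next 268).

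HT differed from LT for 16 adaptors by limma's test (adjusted p under 0.05). This is the HT against LT comparison given above, in which the PBS mice drop out, and the calls are the same. They were 15.8% of the 101, where 20.4% of all genes were called. The HT minus LT difference was 0.95 for Klhl38, 0.91 for Klhl5, 0.69 for Kbtbd11, 0.61 for Klhl7, 0.41 for Asb11, 0.39 for Fbxo6 and 0.29 for Fbxo38. It was −0.84 for Klhl33, −0.73 for Klhl23, −0.69 for Kbtbd3, −0.65 for Klhl29, −0.59 for Asb15, −0.57 for Asb10, −0.55 for Fbxw7, −0.44 for Klhl31 and −0.29 for Fbxl17. Without C48, C54 and C55 the call remained for 1 of these, Klhl7.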

How the results depend on the processing

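No paired analysis was possible because the replicate numbers only name mice in accession order and pair none. Of the counts of called adaptors, those in 1wk were 4 with a weight for each library and 1 without C48, C54 and C55, and those in LT were 1 with quantile normalization, 2 with library weights, 2 without the 3 HT mice and 0 to 1 without each mouse. The HT counts against PBS were 21 with library weights, 17 with only the 2 groups, 12 without the 3 mice and 20 to 38 without each mouse (20 without C54, 21 without C55). The HT counts against LT were 1 with library weights, 2 with only the 2 groups, 2 without the 3 mice and 11 to 24 without each mouse. The F test called 13 without the 3 mice and 18 to 32 without each mouse, 18 without C54. The cause of these changes was not tested. Outside the main fit, the share of all genes called was counted only for the group comparisons without the 3 mice. Under the other settings a change in the adaptors cannot be set against the whole table. Pseudocounts, the mean filter, scaling and robust moderation moved the HT counts to between 33 and 36 against PBS and between 16 and 18 against LT.

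The median log2 fold change of all adaptors in HT against PBS ran from −0.05 to −0.013 without each mouse. The Klhl median there was −0.101 with the mean filter, which drops scarce genes, and 0.169 without the 3 HT mice. The Kbtbd median was −0.258 against PBS and −0.194 against LT with that filter, and the median of the other cullin adaptors against LT was 0.022 with library weights. Among results on named genes called in the main fit or the alternative, only that of Fbxo6 against PBS changed direction, at −0.02 without the 3 mice. Results called in neither fit also changed sign without them. Examples are Klhl31 (−0.10 to 0.24) and Klhl34 (−0.27 to 0.17) against PBS and Kbtbd13 (−0.70 to 0.04) against LT. In the LT and HT libraries a gene near 10 units rests on a few reads, which limits Asb18, Klhl29, Kbtbd11, Fbxl15 and Fbxl16.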
